A study of Mus musculus with 63 samples.

Results

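miR-146a and miR-146b are paralogous miRNAs made from separate genes, and 3 of their strands are described here, out of 2110 loci in the count table: mmu-miR-146a-5p, mmu-miR-146b-5p and mmu-miR-146b-3p. They were chosen by name, and each name was found at a single locus. The opposite strand of miR-146a, mmu-miR-146a-3p, was counted too (465 counts in all libraries, 413 of them in Macs) and was outside that choice. The 63 sRNA-Seq libraries come from kidneys of 16 male C57BL/6 mice aged 8 to 12 weeks, from which endothelial cells (ECs, CD31+), macrophages (Macs, F4/80+), proximal tubular cells (PT cells, LTL+) and PDGFR-β+ cells were isolated by FACS. The mice were sham operated, had unilateral ureteric obstruction for 2 days (UUO-2) or 7 days (UUO-7), or had 7 days of obstruction and were culled 14 days after its reversal (R-UUO). Each of the 16 groups holds 4 libraries from different mice, except PDGFR-β+ cells at UUO-7, which hold 3. The sequenced mice were those whose expression of the injury marker Havcr1 lay nearest to the mean, so the spread between them may understate that of unselected animals.

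miR-146a is known as a target gene of NF-κB, and its 5p strand represses Irak1 and Traf6, adaptors that pass signals from Toll-like and interleukin-1 receptors. It is therefore described as a brake on innate immune signalling. miR-146b-5p carries the same seed, the bases near the 5′ end that pair with target mRNAs. miR-146b-3p is the strand of the miR-146b hairpin opposite to miR-146b-5p.

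The mature sequences are shown because the comparison of the paralogs depends on the bases at which they differ. They are RefSeq sequences on GRCm38.p6, 5′ to 3′, with the seed (bases 2 to 8) in capitals.
mmu-miR-146a-5p: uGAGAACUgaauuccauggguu
mmu-miR-146b-5p: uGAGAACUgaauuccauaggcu
mmu-miR-146b-3p: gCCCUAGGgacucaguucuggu
Both 5p members are 22 bases long and differ at 2 positions, G18A and U21C, counted from 1 at the 5′ end with the base of miR-146a-5p first. Their first 17 bases are identical, so a read that ends there cannot be assigned to either. Of 1679 mature mouse miRNA names in the RefSeq table, 2 have this seed, and they are the 5p members. The seed of miR-146b-3p occurs in 1 name, its own.

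miR-146a-5p lies at chr11:43374435-43374456 on the minus strand (GRCm38). Its hairpin, chr11:43374397-43374461, is intergenic in the GENCODE annotation, and the nearest gene is the lincRNA Gm12148 on the opposite strand, 11021 bases away. miR-146b-5p lies at chr19:46342790-46342811 and miR-146b-3p at chr19:46342828-46342849, both on the plus strand. Their hairpin, chr19:46342762-46342870, is within an intron of the protein-coding gene Mfsd13a (chr19:46341121-46375252, same strand). No other counted locus overlaps a member. The miR-146b hairpin is given because both of its strands are described here, and these are in capitals.
Mir146b: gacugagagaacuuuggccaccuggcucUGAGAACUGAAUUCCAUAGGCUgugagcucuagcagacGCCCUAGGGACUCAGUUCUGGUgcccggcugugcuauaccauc

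Total counts ranged from 616565 to 10819385 per library and reached at least 1106651 outside PT cells. Each labelled cell type was checked against marker miRNAs. With all libraries scaled together, the arms of endothelial miR-126a summed to 93098 to 173192 CPM (counts scaled to a common library total) in ECs and to at most 3524 CPM elsewhere. The 4 arms of the leukocyte miRNAs miR-142a and miR-223 summed to 14848 to 42066 CPM in Macs and to at most 700.0 CPM elsewhere. The PDGFR-β+ cell list (miR-199a, miR-214, miR-143 and miR-145a) summed to at least 92471 CPM in PDGFR-β+ cells and to at most 46034 CPM elsewhere, the latter in ECs. The tubular list (miR-192, miR-194, miR-215 and miR-204) summed to 99964 to 130358 CPM in sham PT cells, to as little as 17290 CPM in PT cells of R-UUO mice and to at most 6266 CPM outside PT cells. Almost all of the sum in sham PT cells was miR-192-5p (118265 CPM). miR-194-5p was also highest in sham PT cells (2587 CPM), but miR-204-5p was higher in sham ECs (2796 CPM) than in sham PT cells (112 CPM), and miR-215-5p was under 3 CPM in the sham mean of every cell type. In PT cells at UUO-7, miR-204-5p rose (3.40) while miR-192-5p (-1.62) and miR-194-5p (-1.44) fell, on the log2 scale. In sorted bulk samples, a shift in the cells collected and a shift in the miRNA per cell cannot be told apart.

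The first comparison asked in which cell types each paralog was found. miR-146a-5p was highest in Macs, the phagocytes of the kidney, then in ECs, whereas miR-146b-5p was low in ECs and came nearest to Mac levels in PDGFR-β+ cells of injured kidneys. With all libraries scaled together, miR-146a-5p had a median of 24100 CPM in Macs (range 15245 to 53516, n = 16), 3104 CPM in ECs (2577 to 5184, n = 16), 356 CPM in PDGFR-β+ cells (188 to 1761, n = 15) and 212 CPM in PT cells (139 to 421, n = 16). Its Mac and EC libraries overlapped neither each other nor the other cell types, and its PDGFR-β+ and PT libraries overlapped. miR-146b-5p had a median of 3334 CPM in Macs (1520 to 6522), 1479 CPM in PDGFR-β+ cells (144 to 8293), 180 CPM in PT cells (119 to 368) and 153 CPM in ECs (71.4 to 246). The widest range was that of PDGFR-β+ cells, which ran from the level of PT cells to above that of any Mac library on this scale. As a share of all counts, its highest value (0.901%, at UUO-7) was instead below every Mac library of UUO-7 (0.996% to 1.22%).

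**Figure D1:**
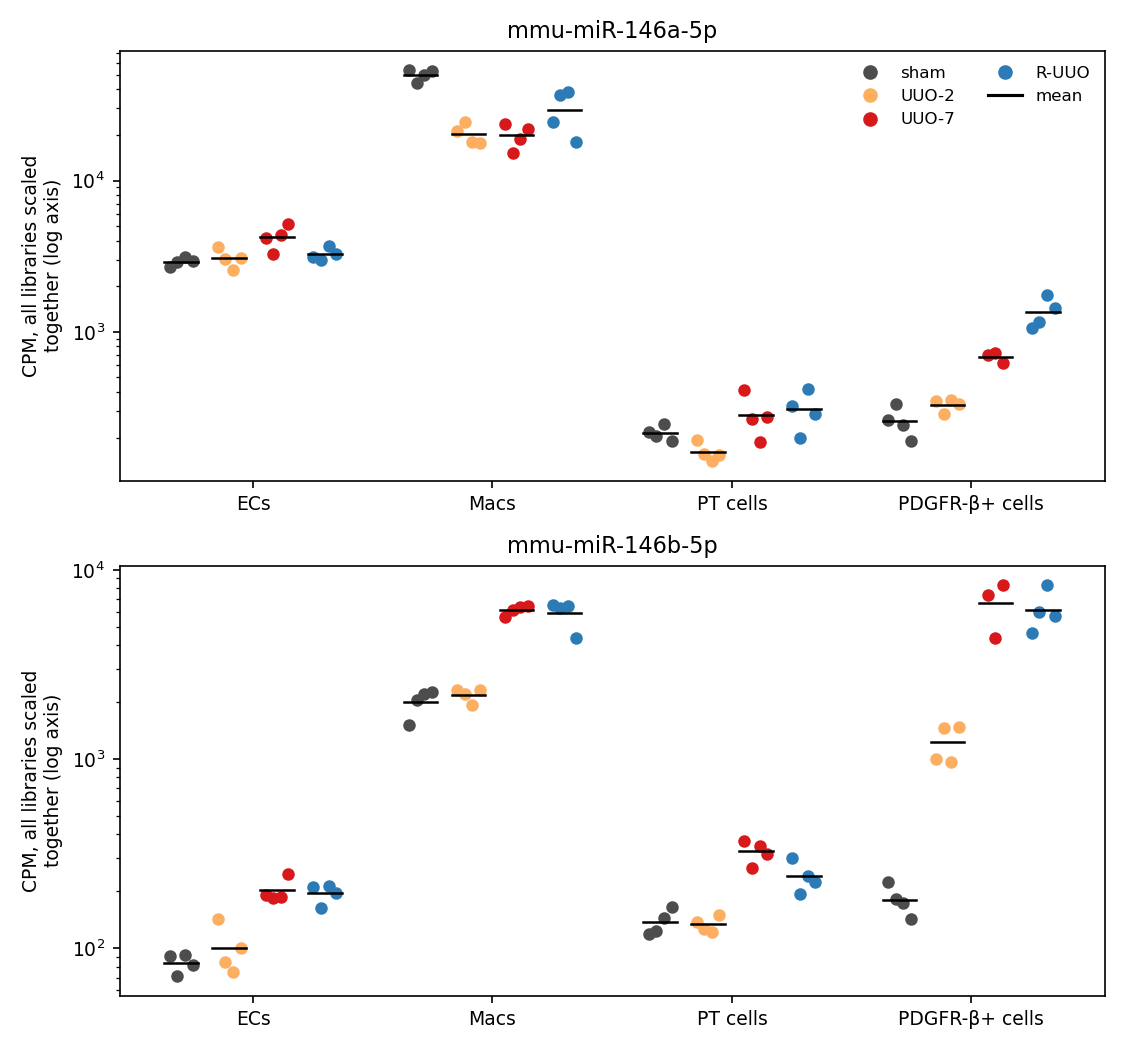
Level of miR-146a-5p and miR-146b-5p in each of the 63 libraries, in CPM with all libraries scaled together (log axis), by cell type and condition; points are libraries and black lines are group means. Macs hold the highest miR-146a-5p, and miR-146b-5p of PDGFR-β+ cells climbs from a sham mean of 181 CPM to 6684 CPM at UUO-7.

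A locus was called where its adjusted p from edgeR's quasi-likelihood test was under 0.05 and its fold over 1.5. In sham kidneys, miR-146a-5p was 17.2-fold higher in Macs than in ECs (log2 4.11 ± 0.22 SE, adjusted p = 3.99e-23), 234-fold higher than in PT cells (7.87 ± 0.27) and 195-fold higher than in PDGFR-β+ cells (7.60 ± 0.26). ECs in turn exceeded PT cells 13.6-fold (3.76 ± 0.22) and PDGFR-β+ cells 11.3-fold (-3.50 ± 0.22 for PDGFR-β+ cells minus ECs). PDGFR-β+ and PT cells did not differ beyond their spread in sham (0.26, 95% interval -0.13 to 0.66, adjusted p = 0.265).

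For miR-146b-5p in sham, Macs exceeded ECs 23.9-fold (log2 4.58 ± 0.21 SE), PT cells 14.6-fold (3.87 ± 0.21) and PDGFR-β+ cells 11.1-fold (3.47 ± 0.20). Among the other cell types, PDGFR-β+ cells exceeded ECs 2.15-fold (1.11 ± 0.19), and ECs were 1.64-fold below PT cells (-0.71 ± 0.19, adjusted p = 0.00114), a call that was lost when any of 5 mice was left out. PDGFR-β+ cells minus PT cells was 0.39 (0.02 to 0.77, adjusted p = 0.0721). For both members this last difference turned negative when libraries were scaled by their size only, to -0.75 for miR-146a-5p and -0.62 for miR-146b-5p. Both were then called (adjusted p = 0.00212 and 0.00423), so no order of these cell types in sham is given.

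Differences between cell types were common among the 671 loci tested. In sham, 56.5% were called between Macs and ECs, 52.2% between Macs and PT cells, 61.4% between Macs and PDGFR-β+ cells, 38.7% between PDGFR-β+ cells and ECs, 53.7% between PDGFR-β+ and PT cells and 56.9% between ECs and PT cells. Averaged over the 4 conditions, the corresponding shares were 64.7%, 62.3%, 68.7%, 40.2%, 63.2% and 68.6%. Of the 24 such differences of the 5p members, 21 were called. These differences share cell types, and the means over conditions include sham. No excess over the shares of all loci is therefore read from their count, and none was tested. Averaged over conditions, miR-146b-5p of Macs exceeded that of PDGFR-β+ cells 2.04-fold (log2 1.03 ± 0.10 SE, but 2.10 with scaling by library size only), whereas miR-146a-5p did so 52.4-fold (5.71 ± 0.13, but 6.77 with that scaling). PDGFR-β+ cells exceeded ECs 12.8-fold in miR-146b-5p (3.68 ± 0.10) but were 6.29-fold below them in miR-146a-5p (-2.65 ± 0.11).

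Scaling by library size only moved several of these sizes by more than 1.5 times. In sham it gave, for Macs minus ECs, 5.24 (miR-146a-5p) and 5.71 (miR-146b-5p) and, for Macs minus PDGFR-β+ cells, 8.71 and 4.58. For ECs minus PT cells it gave 2.72 (miR-146a-5p) and -1.75 (miR-146b-5p). The calls of these 6 differences were kept under it.

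The next comparisons asked how each member changed with obstruction and after its reversal, within a cell type. From here CPM values were scaled within the cell type, so they are compared between conditions and not between cell types. In Macs the paralogs moved in opposite directions: miR-146a-5p fell and miR-146b-5p rose. In sham Macs miR-146a-5p was 83448, 69538, 80975 and 77691 CPM, 7.05% to 8.09% of all counts and the second most abundant of the 2110 loci. It was 35637, 44073, 31010 and 33199 CPM at UUO-2, 41539, 26744, 35004 and 33229 CPM at UUO-7, and 40562, 58530, 59515 and 30641 CPM in R-UUO. Every sham library lay above every library of the other conditions.

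miR-146a-5p of Macs fell 2.17-fold by UUO-2 (log2 -1.11 ± 0.18 SE, adjusted p = 0.000158), 2.28-fold by UUO-7 (-1.19 ± 0.18, adjusted p = 4.46e-05) and was 1.65-fold below sham in R-UUO (-0.72 ± 0.18, adjusted p = 0.00481). The shares of all loci called in these comparisons were 27.6%, 43.1% and 31.9%. UUO-7 and UUO-2 differed by -0.08 ± 0.18. R-UUO minus UUO-7 was 0.47 ± 0.18 (adjusted p = 0.0722) and was called without R-UUO replicate 5 (0.69) or without UUO-7 replicate 2 (0.64).

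miR-146b-5p of Macs was 2371, 3215, 3611 and 3327 CPM in sham and 3910, 3953, 3351 and 4324 CPM at UUO-2. It then rose to 9819, 10715, 11897 and 9812 CPM at UUO-7 and was 10787, 10058, 9985 and 7395 CPM in R-UUO. All libraries of the later conditions lay above those of sham and UUO-2. UUO-7 exceeded sham 3.37-fold (log2 1.75 ± 0.15 SE, adjusted p = 6.78e-08) and UUO-2 2.72-fold (1.44 ± 0.14, with 30.6% of loci called), and R-UUO exceeded sham 3.05-fold (1.61 ± 0.14). The early difference, UUO-2 minus sham, was 0.31 ± 0.14 (adjusted p = 0.0989). R-UUO minus UUO-7 was -0.14 ± 0.14, with 19.9% of loci called, and 1 R-UUO library, at 7395 CPM, lay below all of UUO-7.

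Other markers moved in the Mac libraries with these changes. On the scale within Macs, the summed leukocyte miRNAs were 57000 to 65594 CPM in sham and 31993 to 34518 CPM at UUO-7, and of the 4 arms miR-142a-3p (-0.78) and miR-142a-5p (-0.93) fell, miR-223-5p rose (1.37) and miR-223-3p was -0.58 without a call. miR-150-5p, known from lymphocytes but highest here in ECs (sham mean 3244 CPM, against 129 CPM in Macs, with all libraries scaled together), rose in Macs at UUO-7 (log2 2.36 ± 0.35 SE), from 145 to 256 CPM in sham to 774 to 1303 CPM on the scale within Macs. Of the PDGFR-β+ cell list, miR-199a-5p (1.65), miR-199a-3p (1.91) and miR-214-3p (3.82) rose in Macs. The tubular miR-192-5p (-1.18), miR-194-5p (-0.79) and miR-215-5p (-1.72) fell at UUO-7. Already at UUO-2, miR-150-5p (1.46), miR-214-3p (0.96), miR-142a-3p (0.74), miR-223-5p (0.73) and the erythroid miR-451a (3.68) rose there. In R-UUO all 5 arms of the PDGFR-β+ cell list rose, from miR-143-3p (1.08) to miR-214-3p (3.83), as did miR-150-5p (1.57), miR-223-5p (0.77) and miR-204-5p (1.70), while miR-192-5p (-1.32), miR-194-5p (-0.78), miR-142a-5p (-0.78) and miR-223-3p (-0.88) fell. The part of these shifts in the miR-146 changes was not tested.

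In PDGFR-β+ cells, the fraction that holds fibroblasts and pericytes, both paralogs rose, and miR-146b-5p rose more. miR-146b-5p was 164, 159, 131 and 115 CPM in sham and 864, 1172, 789 and 1148 CPM at UUO-2. It was 5348, 3358 and 6628 CPM at UUO-7, and 3742, 4320, 5790 and 4621 CPM in R-UUO. No library of sham, UUO-2 or UUO-7 overlapped another of these conditions, and R-UUO lay in the range of UUO-7. By mean level its rank among the 2110 loci went from 116 in sham to 58, 24 and 26 in UUO-2, UUO-7 and R-UUO.

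miR-146b-5p of PDGFR-β+ cells rose 6.97-fold by UUO-2 (log2 2.80 ± 0.22 SE, adjusted p = 3.96e-07), where 6.29% of 477 loci were called. It was 35.8-fold above sham at UUO-7 (5.16 ± 0.25, adjusted p = 5.91e-10) and 32.4-fold above in R-UUO (5.02 ± 0.24, adjusted p = 4.32e-10), where 48.2% and 41.7% of loci were called. It ranked 27 by log2 change at UUO-7 and 14 in R-UUO among these loci. UUO-7 exceeded UUO-2 5.15-fold (2.36 ± 0.22, with 33.8% of loci called). R-UUO minus UUO-7 was -0.15 ± 0.22 (adjusted p = 0.787, with 3.98% of loci called), so no fall after reversal was detected.

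miR-146a-5p of PDGFR-β+ cells was 191, 292, 184 and 151 CPM in sham, 302, 228, 291 and 258 CPM at UUO-2, 509, 559 and 502 CPM at UUO-7, and 858, 840, 1230 and 1169 CPM in R-UUO. Sham and UUO-2 overlapped, and each later condition lay wholly above the one before. The change was 0.40 ± 0.19 SE on the log2 scale at UUO-2 (adjusted p = 0.236), 1.35 ± 0.21 at UUO-7 (2.55-fold, adjusted p = 6.89e-05) and 2.32 ± 0.20 in R-UUO (5.00-fold, adjusted p = 1.63e-07). UUO-7 exceeded UUO-2 by 0.96 ± 0.21 (adjusted p = 0.00212). Unlike that of miR-146b-5p, its rise from UUO-7 to R-UUO was called (0.97 ± 0.21, adjusted p = 0.0173), but not when libraries were scaled by size only (0.73, adjusted p = 0.0533) or without R-UUO replicate 4, UUO-7 replicate 2 or UUO-7 replicate 5 (adjusted p from 0.0585 to 0.143).

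Leukocyte miRNAs also rose in PDGFR-β+ libraries, so both sets of values are given as a percent of the Mac mean of the same condition, with all libraries scaled together. These percentages also move with the Mac means, which from sham to UUO-7 went from 50136 to 19884 CPM for miR-146a-5p and from 2014 to 6133 CPM for miR-146b-5p, so a percentage does not give the change within a cell type. The leukocyte sum was 0.225% of the Mac sum in sham, and 1.1% (UUO-2), 2.28% (UUO-7) and 0.723% (R-UUO) in the other conditions, and its range was 53.0 to 171 CPM in sham and 275 to 700.0 CPM at UUO-7. miR-146b-5p was 9.0%, 56.1%, 109% and 104% of the Mac level in the same conditions, but 4.18%, 20.5%, 58.7% and 58.1% with scaling by library size only, an alternative added after the data were seen. That scaling also lowered the leukocyte percentages, to 0.108%, 0.409%, 1.26% and 0.408%. With all libraries scaled together miR-146a-5p was 0.514%, 1.63%, 3.45% and 4.60%, nearer to the percentages of the leukocyte sum on that scale. In Macs at UUO-7, miR-142a-5p made up 17348 of the 19237 CPM of that sum, and the arms differed. In PDGFR-β+ cells and Macs at UUO-7, miR-142a-5p was 338 and 17348 CPM and miR-142a-3p 27.5 and 379 CPM. There miR-223-3p was 70.9 and 1267 CPM, miR-223-5p 1.62 and 243 CPM, and miR-146a-5p 686 and 19884 CPM. With scaling by library size only it was 0.239%, 0.604%, 1.85% and 2.61%. The study sorted ECs, PT cells and PDGFR-β+ cells as negative for CD45, by which it gated immune cells. From UUO-7 to R-UUO the leukocyte percentage was lower and that of miR-146a-5p higher. The Mac mean of miR-146a-5p also moved, from 19884 to 29452 CPM. The call of miR-146a-5p in PDGFR-β+ cells over this interval was lost under the alternatives given above. The part of leukocytes in the rise of either member was not tested.

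**Figure D2:**
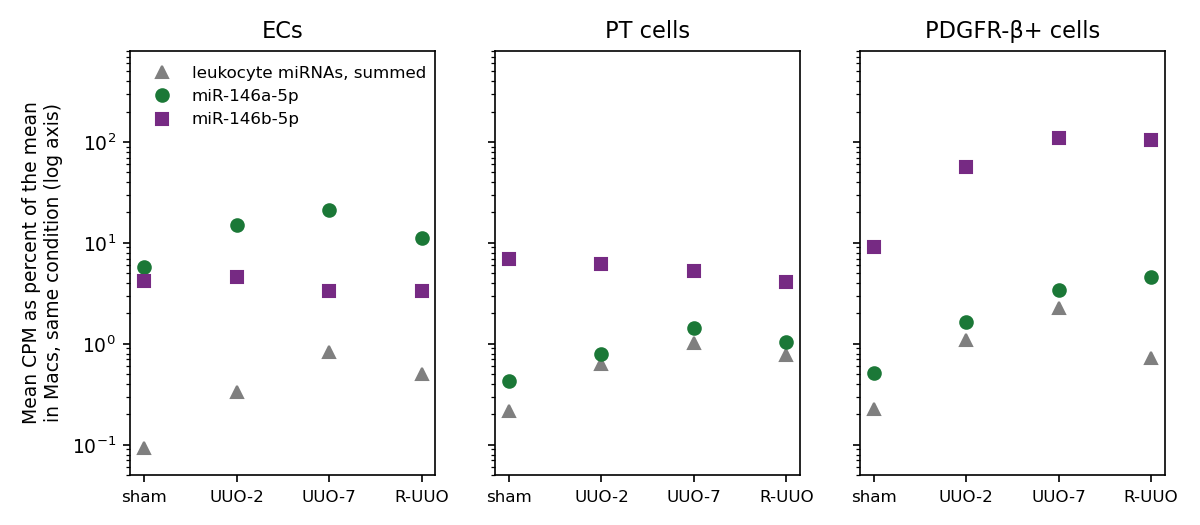
Mean level of the summed leukocyte miRNAs (triangles), miR-146a-5p (circles) and miR-146b-5p (squares) as a percent of the Mac mean of the same condition (log axis), in ECs, PT cells and PDGFR-β+ cells. In PDGFR-β+ cells miR-146b-5p reaches 109% of the Mac level at UUO-7, where the leukocyte sum is at 2.28%; with scaling by library size only these are 58.7% and 1.26%.

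The PDGFR-β+ marker list was itself not constant. Its sum had a mean of 371360 CPM in sham, against 277542 (UUO-2), 155836 (UUO-7) and 135869 (R-UUO) CPM. At UUO-7 miR-143-3p (log2 -1.48) and miR-145a-5p (-1.28), miRNAs of contractile mural cells, fell, and miR-199a-5p (2.39), miR-199a-3p (2.09) and miR-214-3p (3.06) rose. Markers of other cells fell there at UUO-7: the endothelial miR-126a-3p (-1.35) and miR-126a-5p (-1.27) and, of the tubular list, miR-192-5p (-0.96), miR-194-5p (-0.79) and miR-204-5p (-1.46). In R-UUO against sham, miR-126a-3p (-1.85), miR-126a-5p (-2.03), miR-192-5p (-1.26) and miR-194-5p (-0.94) were lower. The part of these shifts in the rises of the members was not tested. Scaling by library size only moved the median change of all loci at UUO-7 by 0.52, and the rises of miR-146b-5p and miR-146a-5p against sham at UUO-7 and in R-UUO kept their calls under it.

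In ECs, which line the vessels, miR-146b-5p rose 2.58-fold and miR-146a-5p 1.56-fold by UUO-7. miR-146b-5p was 55.1, 46.1, 57.4 and 50.7 CPM in sham and 106, 61.8, 47.7 and 66.8 CPM at UUO-2. It was 134, 130, 120 and 156 CPM at UUO-7, and 151, 98.5, 150 and 132 CPM in R-UUO. The libraries of UUO-7 lay above all of sham and UUO-2, and those of R-UUO above all of sham.

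The change of miR-146b-5p in ECs was 1.37 ± 0.21 SE on the log2 scale at UUO-7 (adjusted p = 0.000244) and 1.34 ± 0.21 in R-UUO (adjusted p = 0.000306), with 11.5% and 16.8% of 469 loci called. UUO-2 minus sham was 0.43 ± 0.21 (adjusted p = 0.377, with 1.71% of loci called). UUO-7 minus UUO-2 was 0.94 ± 0.21 (adjusted p = 0.0187, with 1.92% of loci called), a call lost without UUO-2 replicate 2, UUO-2 replicate 4 or UUO-7 replicate 2 (adjusted p from 0.0503 to 0.0906). R-UUO minus UUO-7 was -0.02 ± 0.20, with 1.07% of loci called. The PDGFR-β+ cell list had a mean sum of 16257 CPM in sham ECs, 11917 CPM at UUO-7 and 27609 CPM in R-UUO (all libraries scaled together), where the libraries spanned 7663 to 46034 CPM and miR-143-3p made up 27057 CPM of the mean. Of its arms in R-UUO against sham, miR-145a-5p was called higher (1.34), and miR-143-3p (0.86), miR-199a-5p (-0.03), miR-199a-3p (-0.54) and miR-214-3p (-0.55) were not called. In R-UUO, PDGFR-β+ cells held a mean of 6144 CPM of miR-146b-5p on that scale and ECs 196 CPM, and the part of PDGFR-β+ cells in the EC level was not tested.

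miR-146a-5p of ECs was 1613, 1868, 1930 and 1833 CPM in sham, 2688, 2193, 1645 and 2048 CPM at UUO-2, 2916, 2291, 2829 and 3272 CPM at UUO-7, and 2210, 1777, 2602 and 2217 CPM in R-UUO. Only UUO-7 did not overlap sham. Its rise at UUO-7 was 0.64 ± 0.15 SE on the log2 scale (adjusted p = 0.00941) and was under the fold threshold when libraries were scaled by size only (0.48, adjusted p = 0.0256). UUO-2 and R-UUO minus sham were 0.24 and 0.28 without a call, the latter -0.06 with scaling by size only. In ECs the leukocyte sum was 0.0924% of that of Macs in sham and 0.831% at UUO-7, whereas miR-146a-5p was 5.80% and 21.4% and miR-146b-5p 4.18% and 3.30%. With scaling by library size only, these values were 0.0425%, 2.65% and 1.91% in sham and 0.301%, 7.73% and 1.19% at UUO-7. Of the leukocyte arms in ECs, miR-142a-3p (3.10), miR-142a-5p (2.22) and miR-223-3p (2.12) rose by UUO-7, and in R-UUO miR-142a-3p (2.71) and miR-142a-5p (1.72) were above sham. miR-204-5p was lower in both (-1.66 and -1.87) and miR-192-5p in R-UUO (-0.79). The part of these shifts in the EC changes was not tested.

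In PT cells, the reabsorbing epithelium that is injured by obstruction, miR-146b-5p rose and no change of miR-146a-5p was called. miR-146b-5p was 142, 142, 170 and 197 CPM in sham, 161, 144, 139 and 168 CPM at UUO-2, 394, 302, 390 and 343 CPM at UUO-7, and 364, 215, 285 and 251 CPM in R-UUO. The UUO-7 and R-UUO libraries lay above all sham libraries. UUO-7 exceeded sham 2.19-fold (log2 1.13 ± 0.18 SE, adjusted p = 0.000156, with 43% of 330 loci called) and UUO-2 2.34-fold (1.22 ± 0.18, adjusted p = 0.000583, with 4.24% called). R-UUO exceeded sham 1.71-fold (0.78 ± 0.18, adjusted p = 0.00303, with 38.8% called), but 0.28 with scaling by library size only (adjusted p = 0.323).

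For miR-146b-5p of PT cells, UUO-2 minus sham was -0.09 ± 0.18 SE on the log2 scale (19.1% of loci called) and R-UUO minus UUO-7 was -0.36 ± 0.18 (1.52% called). miR-146a-5p of PT cells ranged from 227 to 286 CPM in sham, 160 to 225 CPM at UUO-2, 208 to 439 CPM at UUO-7 and 221 to 499 CPM in R-UUO. Its changes from sham were -0.46 (UUO-2), 0.29 (UUO-7) and 0.50 (R-UUO), with adjusted p of 0.178, 0.330 and 0.105, and the one at UUO-7 was -0.03 with scaling by library size only. UUO-7 minus UUO-2 was 0.76 ± 0.24 (adjusted p = 0.0794), but was called without UUO-7 replicate 4 (0.92, adjusted p = 0.0477). It was also called with DESeq2 (0.77, adjusted p = 0.0475). R-UUO minus sham was called without R-UUO replicate 2 (0.60, adjusted p = 0.0446). The leukocyte sum of PT cells was 0.218% of that of Macs in sham and 1.01% at UUO-7, beside 0.428% and 1.42% for miR-146a-5p and 6.85% and 5.30% for miR-146b-5p. At UUO-7 these were 0.590%, 0.823% and 2.99% with scaling by library size only.

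Some markers of other cells were also higher in PT libraries after obstruction, among them those of PDGFR-β+ cells. With all libraries scaled together, their list had a mean sum of 2504 CPM in sham PT cells, against 7940 CPM (UUO-2), 10295 CPM (UUO-7) and 10020 CPM (R-UUO). At UUO-2 against sham miR-143-3p (1.66) and miR-145a-5p (2.92) were called higher in PT cells. There miR-199a-5p (0.45), miR-199a-3p (-0.26) and miR-146b-5p (-0.09) were not called. From UUO-2 to UUO-7 miR-146b-5p of PT cells rose by 1.22, and miR-143-3p (0.33) and miR-145a-5p (-0.36) were not called. Over the same interval miR-146b-5p of PDGFR-β+ cells rose as well, from a mean of 1227 CPM to 6684 CPM with all libraries scaled together. Against sham at UUO-7 miR-143-3p (1.99) and miR-145a-5p (2.56) rose, miR-199a-5p (0.85) and miR-199a-3p (0.35) were not called and miR-214-3p was not tested. In R-UUO miR-143-3p (2.03) and miR-145a-5p (4.29) were called above sham, and miR-199a-5p (1.19) and miR-199a-3p (-0.04) were not called. At UUO-7, PDGFR-β+ cells held a mean of 6684 CPM of miR-146b-5p and PT cells 325 CPM, and the part of PDGFR-β+ cells in the PT level was not tested. In R-UUO the endothelial miR-126a-3p (1.21), miR-150-5p (1.45) and the leukocyte miR-142a-5p (0.96) were called above sham in PT cells too, and miR-192-5p (-1.50) and miR-194-5p (-1.24) below it. Their part in the R-UUO level of miR-146b-5p was not tested.

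**Figure D3:**
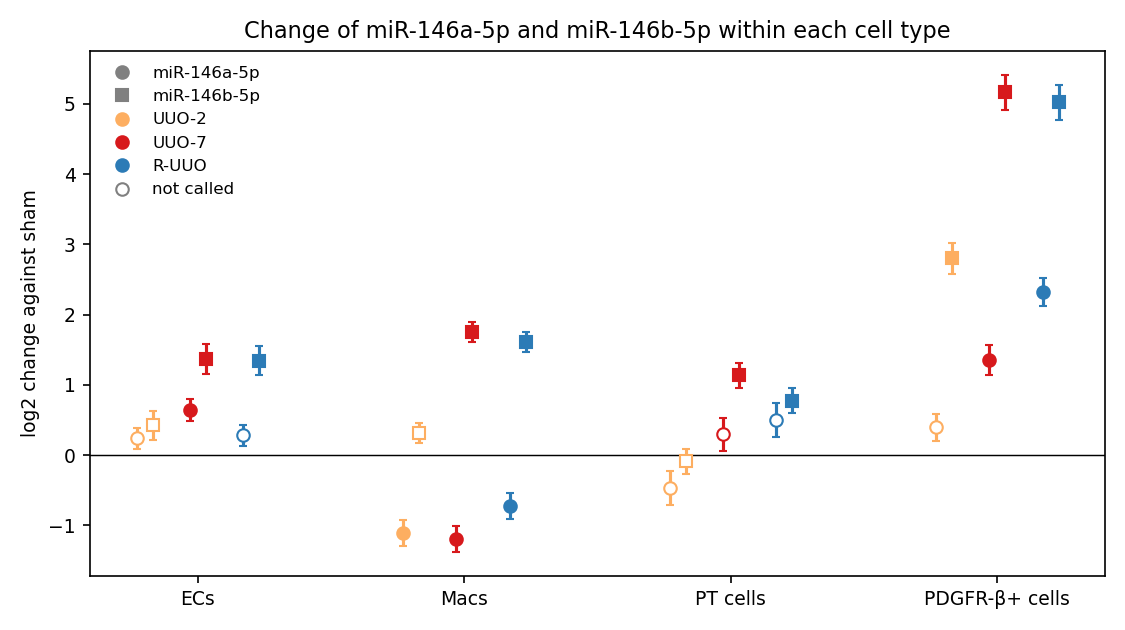
Change against sham of miR-146a-5p (circles) and miR-146b-5p (squares) on the log2 scale in each cell type at UUO-2, UUO-7 and R-UUO, with bars of 1 SE and open symbols where the change was not called. The changes of miR-146a-5p in Macs lie below 0, down to -1.19, and those of miR-146b-5p in PDGFR-β+ cells reach 5.16.

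Whether these changes differed between cell types was tested as the difference of changes in the fit of all 63 libraries. 14 of 24 such differences were called. At UUO-7, the change of miR-146a-5p in Macs was lower than in ECs by 1.88 on the log2 scale (-1.88 ± 0.28 SE, adjusted p = 8.67e-07, with 18.2% of 671 loci called), lower than in PT cells (-1.73 ± 0.28, 27.4% called) and lower than in PDGFR-β+ cells (-2.75 ± 0.29, 20.4% called). The same held at UUO-2 against ECs (-1.38 ± 0.28, 6.71% called), PT cells (-0.88 ± 0.28, 11% called) and PDGFR-β+ cells (-1.66 ± 0.28, 8.79% called). Of these, the difference from PT cells at UUO-2 was not called with scaling by library size only (-0.32), with DESeq2 (-0.36) or without any of 7 of the 8 mice in turn, and that from ECs at UUO-2 was not called without UUO-2 replicate 1 (-0.91).

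The change of miR-146b-5p was larger in PDGFR-β+ cells than in every other cell type at both times. At UUO-7 it exceeded the change in ECs by 3.94 ± 0.28 SE on the log2 scale (adjusted p = 4.51e-17, with 27.3% of loci called) and that in PT cells by 3.97 ± 0.28 (27% called), and the change in Macs was lower by 3.60 (-3.60 ± 0.28). At UUO-2 it exceeded ECs by 2.50 ± 0.27 (adjusted p = 4.19e-10, with 1.49% called) and PT cells by 2.80 ± 0.27 (11.6% called), and Macs were lower (-2.64 ± 0.27). These 6 calls held under every alternative run. For miR-146a-5p at UUO-7, PDGFR-β+ cells minus ECs was 0.87 ± 0.29 and minus PT cells 1.01 ± 0.29, calls that were lost without sham replicate 3 (0.69 and 0.77) or without UUO-7 replicate 4 (0.70 and 0.69), and the former also without sham replicate 4 (0.74), UUO-7 replicate 2 (0.80) or UUO-7 replicate 3 (0.74).

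ECs and PT cells were not called different. ECs minus PT cells was 0.15 (95% interval -0.40 to 0.70) for miR-146a-5p and 0.03 (-0.49 to 0.54) for miR-146b-5p at UUO-7, where 16.1% of loci were called, and 0.50 and 0.30 at UUO-2, where 8.94% were. With DESeq2 the difference of miR-146a-5p at UUO-2 was called (0.86, adjusted p = 0.0453). The change of miR-146b-5p at UUO-7 in Macs minus that in ECs was 0.34 (-0.17 to 0.86).

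The balance of the paralogs was measured within each library as log2 of the miR-146a-5p count over the miR-146b-5p count, which does not depend on scaling between libraries. miR-146a-5p was the more abundant in every Mac and EC library, and miR-146b-5p in every PDGFR-β+ library of injured kidneys. In Macs the log2 ratio was 5.14, 4.43, 4.49 and 4.55 in sham, 3.19, 3.48, 3.21 and 2.94 at UUO-2, 2.08, 1.32, 1.56 and 1.76 at UUO-7, and 1.91, 2.54, 2.58 and 2.05 in R-UUO. The geometric mean was 25.1 miR-146a-5p per miR-146b-5p in sham and 3.20 at UUO-7. No sham library overlapped a library of another condition.

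In PDGFR-β+ cells the log2 ratio changed sign. It was 0.22, 0.88, 0.49 and 0.39 in sham, -1.52, -2.36, -1.44 and -2.15 at UUO-2, -3.39, -2.59 and -3.72 at UUO-7, and -2.12, -2.36, -2.24 and -1.98 in R-UUO. In geometric means, miR-146a-5p was 1.41-fold the more abundant in sham and miR-146b-5p 9.41-fold the more abundant at UUO-7. R-UUO lay between sham and UUO-7, at 4.52-fold. In ECs the group means were 5.11 ± 0.20 (SD, n = 4) in sham and 4.06 ± 0.13 in R-UUO, and in PT cells 0.64 ± 0.30 in sham and -0.25 ± 0.47 at UUO-7.

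**Figure D4:**
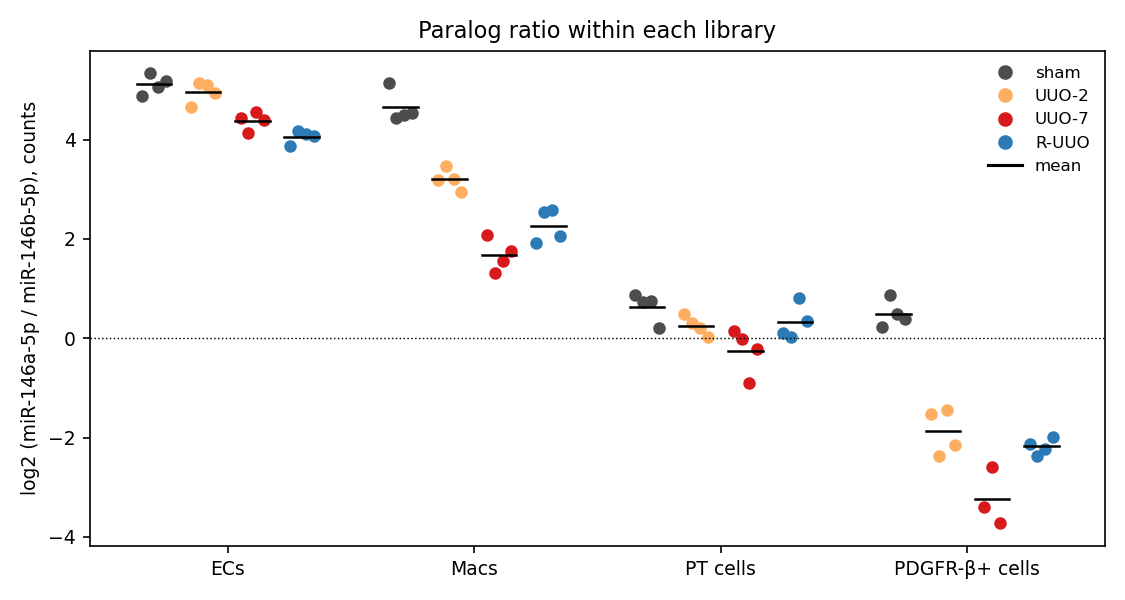
Paralog ratio, log2 of miR-146a-5p over miR-146b-5p counts, in each library by cell type and condition; points are libraries, black lines are group means and the dotted line marks equal counts. ECs stay above 3.87, Macs drop from a mean of 4.65 to 1.68 at UUO-7, and PDGFR-β+ cells cross below 0.

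With 4 libraries a group, the exact 2-sided permutation test of the ratio cannot give a p below 0.0286, and with 3 against 4 not below 0.0571. Of 20 comparisons between conditions, 13 did not overlap, 10 had the smallest p that 4 against 4 allows, and 0 had an adjusted p under 0.05, the lowest being 0.0571. Of 24 comparisons between cell types within a condition, 22 did not overlap and 19 had an adjusted p under 0.05. The sizes in Macs were -1.45 ± 0.20 SE at UUO-2 and -2.97 ± 0.23 at UUO-7 against sham. In PDGFR-β+ cells they were -2.36 ± 0.27 and -3.73 ± 0.37, each several times the spread between mice. In sham, the ratios of PDGFR-β+ and PT cells did not differ beyond that spread (-0.15 ± 0.20, exact p = 0.514).

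Because both 5p members carry one seed, their CPM were also summed within each cell type, as a description. In Macs the sum was 81044 ± 5890 CPM (SD, n = 4) in sham, against 39864 ± 5845 (UUO-2), 44690 ± 5898 (UUO-7) and 56868 ± 15078 (R-UUO) in the other conditions. miR-146b-5p made up 2.76% to 4.42% of it in sham and 19.1% to 28.6% at UUO-7, so its rise in CPM was smaller than the fall of miR-146a-5p. In PDGFR-β+ cells the sum was 347 ± 78.7 CPM in sham, against 1263 ± 166 (UUO-2), 5634 ± 1618 (UUO-7, n = 3) and 5643 ± 1039 (R-UUO) in the other conditions. There miR-146b-5p made up 35.2% to 46.2% in sham and 85.7% to 93.0% at UUO-7.

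miR-146b-3p was rare. It had 279 counts in all libraries together against 545783 of miR-146b-5p, and a count in 29 of the 63 libraries. In the 13 libraries with at least 10 counts of both strands, there were 908 to 2852 counts of the 5p strand for each of the 3p strand. A comparison of the strand ratio needed at least 10 counts of both in every library, and 0 comparisons met this.

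In PDGFR-β+ cells miR-146b-3p had 0 counts in all 4 sham libraries, 0, 0, 0 and 1 at UUO-2, 10, 9 and 1 at UUO-7, and 12, 14, 40 and 8 in R-UUO. Every library of UUO-7 and R-UUO thus had at least 1 count and no sham library had any. The 0 in the 19250801 counts of the sham group allows up to 3 counts. The observed pooled CPM was 9.06-fold (UUO-7) and 18.0-fold (R-UUO) the level of that floor. Intervals and floors cover counting error only, and these folds leave out the counting error of UUO-7 and R-UUO. It passed the filter on low counts in these cells only through UUO-7 and R-UUO, the groups where it is high, so no p is given for its differences from sham and UUO-2. In Macs it ranged from 0 to 10 counts in sham and from 1 to 16 at UUO-7, and no change was called, R-UUO minus sham being 1.46 ± 0.69 SE on the log2 scale (adjusted p = 0.103), although it was called with the replicate number as a block (2.01, adjusted p = 0.0289). In ECs it had at most 5 counts and in PT cells at most 3 in a library, and 13 of the 16 libraries of each had none.

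**Figure D5:**
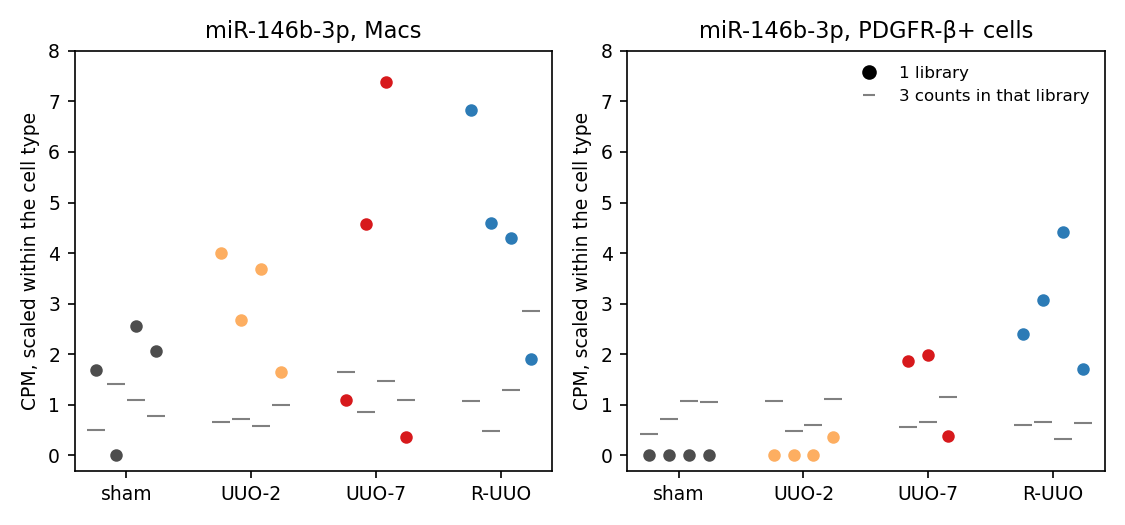
Level of miR-146b-3p in each Mac and PDGFR-β+ library by condition, in CPM scaled within the cell type; points are libraries and grey dashes mark the level of 3 counts in that library. All 4 PDGFR-β+ sham libraries are at 0, and those of R-UUO lie between 1.71 and 4.42 CPM.

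A list of 24 miRNAs tied to Toll-like receptor and NF-κB signalling, such as miR-155, miR-132, miR-212 and miR-147, which are induced in activated immune cells, was set beside the members at UUO-7 against sham. It includes miR-146a-3p, from the miR-146a hairpin itself, which was tested in Macs alone and not called there (log2 0.05). It also includes miR-223-3p, one of the leukocyte markers above, which was among the called rises in PDGFR-β+ cells (2.26) and ECs (2.12). Loci near 0 in sham enter the test through the injured groups, so the counts are a description. In PDGFR-β+ cells 13 of 20 tested rose and 1 fell, with a median log2 change of 1.76 beside 0.50 over all loci. Strands of one hairpin were counted separately, and the rises include both strands of miR-132, miR-212, miR-21a and miR-155. The 13 are therefore not 13 separate genes. Among all loci there, 34% were called higher and 14.3% lower. The list's single fall, of miR-187-3p (-0.78), was not called with scaling by library size only, where 0 fell. miR-155-5p, induced by inflammatory signals, rose from 2.25 ± 1.92 to 109 ± 25.5 CPM (log2 5.63 ± 0.53 SE), and miR-21a-3p, a strand of a miRNA abundant in fibrosis, from 9.50 ± 7.78 to 419 ± 58.8 CPM (5.40 ± 0.45). miR-155-3p had 0 counts in sham and 60 at UUO-7, 27.2-fold the level that 3 counts in sham would give, leaving out the counting error of UUO-7.

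In Macs 11 of 22 list members rose and 5 fell, with a median of 0.67 beside 0.22 over all loci, of which 26.3% were called higher and 16.8% lower. miR-212-5p, miR-212-3p and miR-132-5p, which come from one gene cluster, were near 0 in sham, so pooled counts are given. miR-212-5p had 5 counts in sham and 75 at UUO-7, a ratio of 21.8 (95% counting interval 8.94 to 69.1). miR-212-3p had 18 and 260 counts (21.0, 13.0 to 36.0) and miR-132-5p 6 and 61 (14.8, 6.41 to 41.8). In ECs 8 of 21 rose and 0 fell, median 0.67 beside -0.05, with 6.18% of loci called higher and 5.33% lower. miR-21a-3p rose from 5.61 to 43.4 CPM (2.95 ± 0.30). miR-147-3p had 17 counts in sham and 301 at UUO-7, a ratio of 25.6 (95% counting interval 15.7 to 44.5), and miR-155-3p had 1 count in sham and 24 at UUO-7, a ratio of 34.6 (95% counting interval 5.65 to 1425). In PT cells 7 of 16 rose and 3 fell, median 0.64 beside 0.00, with 25.5% of loci called higher and 17.6% lower. miR-9-5p (3.08 ± 0.50), miR-132-3p (2.17 ± 0.30) and miR-155-5p (1.94 ± 0.35) were the largest there.

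With scaling by library size only, the balance of calls over all loci at UUO-7 turned to 61 higher and 79 lower in PT cells and to 22 and 38 in ECs, and moved to 221 and 35 in PDGFR-β+ cells. The list then had 6 higher and 3 lower in PT cells (median 0.29 beside -0.36) and 7 and 0 in ECs (0.52 beside -0.21). It had 14 and 0 in PDGFR-β+ cells (2.29 beside 1.02) and 13 and 5 in Macs (0.80 beside 0.36).

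The loci whose levels were most like each member over the 16 group means were named by Pearson's r of log2 CPM, a description over points that share cell types and libraries. For miR-146a-5p they were miR-350-5p (0.95), miR-7035-3p (0.95) and miR-342-3p (0.93). For miR-146b-5p they were miR-148b-5p (0.89), miR-6960-5p (0.87) and miR-760-3p (0.86), and for miR-146b-3p miR-760-3p (0.84), miR-148b-5p (0.80) and miR-186-5p (0.80). Between the members themselves, miR-146a-5p and miR-146b-5p had 0.48 over the 16 means, and the strands of miR-146b 0.90. Over the 4 means of Macs alone the 5p members had -0.46, and over those of PDGFR-β+ cells 0.88.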

How the data were processed

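Small RNA was sequenced from FACS-sorted kidney cells. The counts deposited by the authors are whole reads per miRNA locus, from reads trimmed with Trim Galore 0.4.1 and cutadapt 1.1 and aligned to GRCm38 and miRBase with ShortStack, which runs Bowtie, per the study's methods and the submitters' processing notes. The ShortStack setting for reads that match several loci is not given in the sources used here, and 1 pooled column was not used. One PDGFR-β+ library at UUO-7 was not analysed here. Total counts were 616565 to 10819385, and floors of 3 counts cover counting error only.

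Changes were fitted within each cell type (R 4.3.3, edgeR 4.0.16, TMM, filterByExpr, quasi-likelihood test, Benjamini-Hochberg adjustment over all loci tested), and differences between cell types in all 63 libraries. A call needed an adjusted p under 0.05 and a fold over 1.5. Paralog ratios used a pseudocount of 0.5 counts and exact permutation tests (scipy 1.17.1). Scripts were tested on simulated counts. The members and lists were chosen with earlier results of these data known. Named loci are the 3 members, up to 3 called list members per cell type with the largest change at UUO-7, the 3 loci most like each member and the markers. Sequences are from RefSeq (GRCm38.p6). Alternatives were DESeq2 1.42.0, scaling by library size, no filter on low counts, 2-group fits, a replicate block, thinning, other pseudocounts, Spearman correlation and leaving out each library or mouse.

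Replicate numbers in the titles mark mice, so cell types of a mouse share a number. The deviations of 93 such pairs of libraries correlated with r from -0.29 to 0.27 (median 0.05, 31 over 0.1). Replicate pairs differed by 5.40 to 1269 in chi-square per degree of freedom, more than sampling noise, and all were kept as separate replicates.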

Additional observations from a re-analysis of the deposited data

Results flagged for a closer look

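In sham Macs, the paralog log2 ratio of replicate 1 was 5.14, apart from the other libraries at 4.43, 4.49 and 4.55. It was the single library that stood apart in 45 groups of 4, where chance gives about 1 in 20 groups, so 1 is no excess.

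Of 24 differences between cell types in the change of a member, 14 were called. In these comparisons 1.49% to 27.4% of all 671 loci were called. Of the 14 calls, 10 held under every alternative. For miR-146a-5p, the change in Macs minus that in ECs was -1.38 at UUO-2 and -1.88 at UUO-7 on the log2 scale, minus that in PT cells -0.88 and -1.73, and minus that in PDGFR-β+ cells -1.66 and -2.75. The change of miR-146a-5p at UUO-7 in PDGFR-β+ cells exceeded that in ECs by 0.87 and that in PT cells by 1.01. For miR-146b-5p, the change in Macs minus that in PDGFR-β+ cells was -2.64 at UUO-2 and -3.60 at UUO-7. Its change in PDGFR-β+ cells exceeded that in ECs by 2.50 and 3.94, and that in PT cells by 2.80 and 3.97.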

How the results depend on the processing

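Of the 40 changes of a 5p member within a cell type, 17 of the 21 called kept their call and direction under every alternative, as did 20 of the 21 called differences between cell types and 10 of the 14 called differences of changes. Values are log2, the cause of each shift was not tested, and p-values rest on 3 or 4 mice a group. Depth limits miR-146b-3p most.

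With scaling by library size only, which moved the median change of all loci by -0.45 to 0.55, miR-146a-5p gave 0.48 (UUO-7 minus sham, ECs), -0.063 (R-UUO minus sham, ECs), -0.035 (UUO-7 minus sham, PT cells) and 0.73 (R-UUO minus UUO-7, PDGFR-β+ cells), and miR-146b-5p 0.28 (R-UUO minus sham, PT cells). Between cell types it gave -0.75 (miR-146a-5p) and -0.62 (miR-146b-5p) for PDGFR-β+ minus PT cells in sham, and -1.31 for miR-146b-5p of ECs minus PT cells over the conditions, all now called. Among differences of changes it gave, at UUO-2, 0.12 (miR-146b-5p, Macs minus ECs), -0.32 (miR-146a-5p, Macs minus PT cells) and 1.02 (miR-146a-5p, PDGFR-β+ minus PT cells), and 1.1 for miR-146b-5p of Macs minus PT cells at UUO-7. The list fell from 1 to 0 lower members in PDGFR-β+ cells.

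DESeq2 gave -0.017 for miR-146a-5p of PDGFR-β+ minus PT cells in sham and 0.77 for its UUO-7 minus UUO-2 in PT cells, now called. Its differences of changes at UUO-2 were 0.021 (miR-146b-5p, Macs minus ECs), -0.36, 1.13 and 0.86 (miR-146a-5p of Macs, PDGFR-β+ cells and ECs, each minus PT cells, the last 2 now called), and 0.95, now called, for miR-146b-5p of Macs minus PT cells at UUO-7.

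Pairing by replicate number did not hold between conditions, where numbers are different mice (74 pairs, median r -0.02, 8 over 0.1). With the replicate block, miR-146a-5p of Macs was 0.0019 for UUO-7 minus UUO-2, and the paralog ratio of PDGFR-β+ cells was -0.73 for the same contrast. With the mouse as the block, the change of miR-146a-5p at UUO-2 in PDGFR-β+ cells minus that in PT cells was 0.80, now called. For miR-146b-3p, the block gave a call of R-UUO minus sham in Macs (2.01).

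Leaving out libraries in turn, UUO-7 minus UUO-2 ranged from 0.87 to 1.24 (miR-146b-5p, ECs), -0.20 to 0.067 (miR-146a-5p, Macs), -0.44 to 0.45 (miR-146b-3p, Macs) and 0.54 to 0.92 (miR-146a-5p, PT cells). R-UUO minus UUO-7 ranged from -0.13 to 0.084 (miR-146b-5p, ECs), 0.38 to 0.69 (miR-146a-5p, Macs), -0.16 to 0.015 (miR-146b-5p, Macs), 0.86 to 1.06 (miR-146a-5p, PDGFR-β+ cells) and -0.35 to 0.10 (miR-146b-5p, PDGFR-β+ cells). Against sham, ranges were -0.16 to 0.023 (miR-146b-5p, UUO-2, PT cells), 0.31 to 0.60 (miR-146a-5p, R-UUO, PT cells), 0.28 to 0.60 (miR-146a-5p, UUO-2, PDGFR-β+ cells) and 0 to 2.21 (miR-146b-3p, UUO-2, PDGFR-β+ cells). The last range compares 1 count in all UUO-2 libraries with 0 in sham, so no change is read from it.

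Leaving out mice, miR-146b-5p in sham ranged from 0.20 to 0.59 (PDGFR-β+ minus PT cells) and -0.83 to -0.53 (ECs minus PT cells). Differences of changes at UUO-2 ranged from -1.48 to -0.91 (miR-146a-5p, Macs minus ECs), -0.26 to 0.49 (miR-146b-5p, Macs minus ECs), -1.01 to -0.44 (miR-146a-5p, Macs minus PT cells) and 0.64 to 0.97 (miR-146a-5p, PDGFR-β+ minus PT cells). At UUO-7 they ranged from 0.69 to 1.02 (miR-146a-5p, PDGFR-β+ cells minus ECs), 0.69 to 1.2 (miR-146a-5p, PDGFR-β+ minus PT cells), -0.0072 to 0.39 (miR-146a-5p, ECs minus PT cells) and -0.12 to 0.15 (miR-146b-5p, ECs minus PT cells). The paralog ratio of PDGFR-β+ minus PT cells at UUO-7 ranged from -3.53 to -2.73. By Spearman correlation 2, 1 and 0 of the 3 loci most like miR-146a-5p, miR-146b-5p and miR-146b-3p were shared.

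No arm ratio was fitted, since no comparison had 10 counts of both arms in every library.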
